A study of Mus musculus with 6 samples.

Results

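The genes described here encode the core machinery of macroautophagy, the process by which a cell encloses its own contents in a membrane and delivers them to the lysosome. They were chosen by name from 45 listed members, and 44 of these had a row under that name among the 41096 named rows of the deposited gene count table. Map1lc3b is the member without a named row. The samples were 6 polyadenylated RNA libraries from mouse liver, 3 from control animals without DEHP and 3 from animals exposed to DEHP, di(2-ethylhexyl) phthalate, a plasticizer. The exposed columns carry the word High in the table. Dose, route and duration of exposure, and strain, age and sex of the mice, are not stated in the labels. Nothing there says that libraries of a group are from different mice, and the p-values then cover only the spread between these 6 samples, which may be technical.

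Autophagy starts when the ULK kinase complex is released from inhibition by nutrient signalling. It then activates a class III phosphatidylinositol 3-kinase built around Beclin 1, whose lipid product recruits WIPI proteins to the forming membrane. A pair of ubiquitin-like conjugation systems attaches ATG8 proteins (the LC3 and GABARAP families) to that membrane, cargo receptors link them to what is to be degraded, and SNARE proteins and tethers fuse the closed autophagosome with the lysosome. In liver the pathway is known for supplying amino acids and lipids during fasting and for removing damaged organelles. Most of its control acts on proteins rather than transcripts, and transcript levels do not measure autophagic flux.

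Total counts ran from 10410098 to 14229803 a library. Values are CPM, counts scaled to the library's TMM-adjusted total over the genes tested, and differences are log2 fold changes of exposed over control livers with their standard error (SE) from edgeR's quasi-likelihood test, with Benjamini-Hochberg adjustment over 12468 genes tested. All 7 hepatocyte markers examined had counts and summed to between 108752 and 159752 CPM a library. Control libraries differed in interferon-stimulated genes. The summed level of 18 such genes was 4090, 3206 and 363 CPM in controls and ran from 323 to 388 CPM in exposed livers. Kupffer cell and macrophage markers followed the same split, with 8 genes summing to 564, 477 and 165 CPM in controls and to between 189 and 273 CPM in exposed livers. Of these lists, 16 of 17 tested interferon-stimulated genes and 2 of 8 macrophage genes lay lower by an unadjusted p of 0.05, and 0 passed the adjusted threshold (edgeR). The neutrophil genes Ly6g and Mpo and the pancreas genes Cpa1 and Prss2 were at 0, but their full lists were not. The 5 neutrophil genes summed to between 1.10 and 5.39 CPM a library and the 4 pancreas genes to between 10.6 and 16.7 CPM. Endothelial markers summed to between 196 and 255 CPM in controls and between 112 and 224 CPM in exposed livers (means 217 and 164 CPM). Stellate cell markers summed to between 155 and 206 CPM in controls and between 95.7 and 175 CPM in exposed livers (means 178 and 140 CPM). The groups overlapped for both sums. The part of these differences in the results below was not tested. In whole liver, fewer cells of a type and less RNA per cell cannot be told apart.

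No autophagy gene passed the threshold, and the differences seen were small and of mixed direction. All 44 members with a named row were tested, and 0 passed an adjusted p of 0.05 (smallest adjusted p = 0.273, edgeR), where 0.0722% of all genes tested did (0.0561% higher and 0.016% lower). DESeq2 also called 0 members, where it called 2.37% of the genes to which it gave an adjusted p, and limma-voom 0, where it called 0.0561%. At an unadjusted p of 0.05, 6 members (13.6%) were higher in exposed livers, where 6.11% of all genes were, and 2 members (4.5%) were lower, where 6.97% of all genes were. In either direction, 13.1% of all genes reached that p. The CPM of the groups did not overlap for 6 members with higher values in exposed livers (13.6%) and for 4 with lower values (9.1%), where the shares over all genes were 9.17% and 8.57% (17.7% in either direction). The median log2 fold change of the members was 0.058, with 27 positive and 17 negative, against -0.030 over all genes tested.

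The size of these differences was bounded by the replicate error. Of the 44 members, 39 had a log2 fold change between -0.5 and 0.5, and for 39 the whole 95% interval lay between -1 and 1. The median SE was 0.21, against 0.28 over all genes tested. The counts at an unadjusted p of 0.05 moved with the libraries used, and so did the shares over all genes. Higher members numbered 2 (4.5%) without control replicate 1 or without DEHP replicate 2, where 3.47% and 3.68% of all genes were higher. They numbered 4 when control replicate 2 or DEHP replicate 3 was dropped, where 5.11% and 4.03% of all genes were higher. Without DEHP replicate 1 they numbered 6, as with all libraries, where 7.11% of all genes were higher. The genes were not all the same, since Atg5 and Gabarapl2 came in and Gabarap and Wdfy3 dropped out. More members were higher without control replicate 3, where 7.65% of all genes were. Lower members numbered 0 when either control replicate 3 or DEHP replicate 2 was dropped, where 8.32% and 3.73% of all genes were lower. They numbered 3 without DEHP replicate 1 (7.22% of all genes) and 1 when any of the other libraries was dropped (3.96% to 5.53% of all genes). With control replicates 1 and 2 both removed, the libraries with high interferon-stimulated genes, Rb1cc1 (0.67) and Atg13 (-0.72) were still at an unadjusted p of 0.05, where 2.27% of all genes were higher and 2.51% lower. The other 6 were not, at 0.45 for Ulk2, 0.67 for Wipi1, 0.33 for Gabarap, 0.20 for Gabarapl1, 0.40 for Wdfy3 and -0.35 for Atg14.

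**Figure D1:**
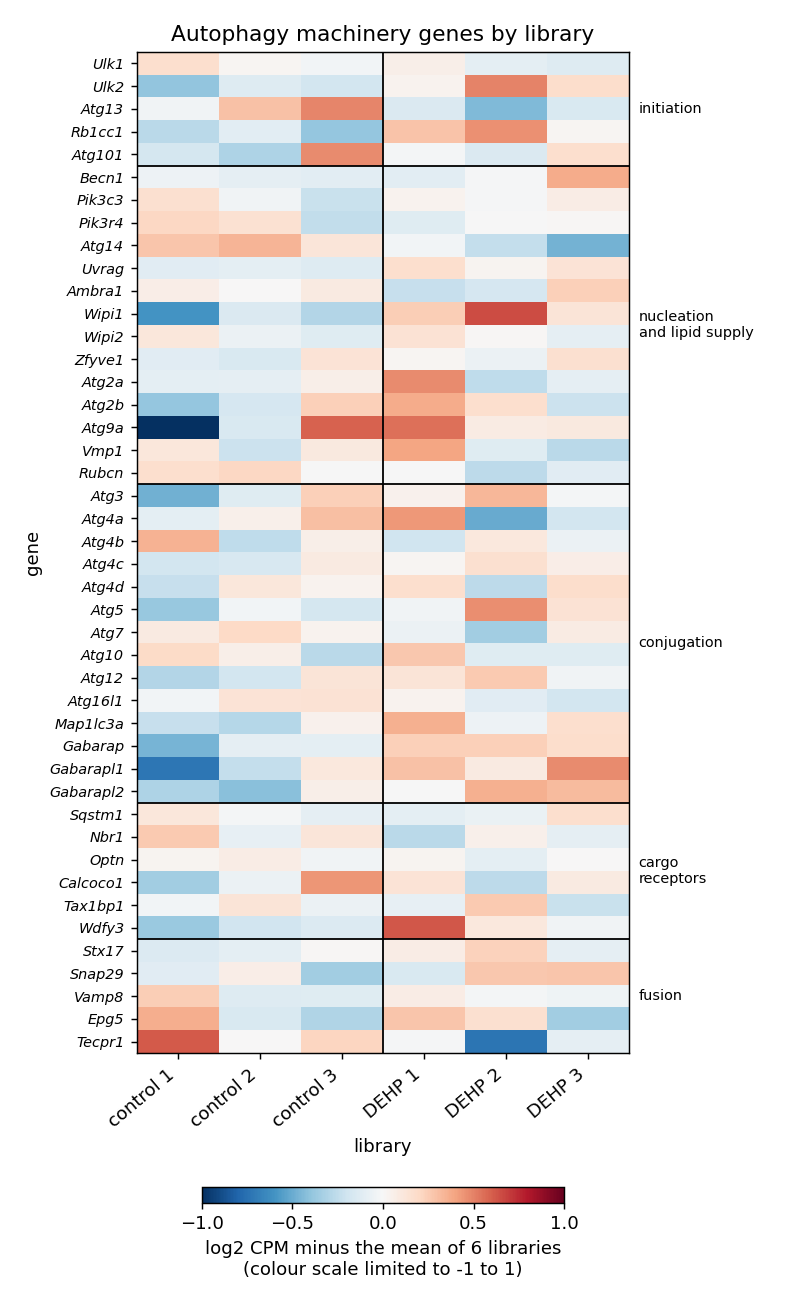
Heat map of log2 CPM minus the mean of the 6 libraries for the 44 tested members (rows, grouped by step) in each library (columns; 3 control and 3 DEHP). Red is above and blue below the gene's own mean; Wipi1, Gabarap and Uvrag are higher in all 3 exposed libraries, Atg13 and Atg14 lower, and most rows show no split by group.

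Within the initiation step, which holds the ULK kinases and their partners, 2 of 5 members lay higher and 1 lay lower (unadjusted p of 0.05). Over all genes, 6.11% lay higher and 6.97% lower at that p. The signs of these members were opposite inside 1 protein complex. Rb1cc1, which encodes FIP200, the scaffold of the ULK complex, measured 26.9, 30.3 and 24.8 CPM in control replicates 1 to 3 and 39.8, 44.8 and 33.0 CPM in the exposed replicates. Every exposed library lay above every control (log2 fold change 0.52 ± 0.20, 95% interval 0.094 to 0.95, adjusted p = 0.312). Ulk2, one of the pair of ULK kinases, stood at 35.5, 42.7 and 41.0 CPM in controls and 47.9, 65.9 and 52.9 CPM in exposed livers. Its groups did not overlap either (0.48 ± 0.19, adjusted p = 0.331).

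Atg13, the subunit that bridges the kinase to FIP200, went the other way. It measured 46.0, 57.6 and 66.0 CPM in controls and 42.5, 34.7 and 42.3 CPM in exposed livers, each exposed value below each control (-0.50 ± 0.20, 95% interval -0.93 to -0.077, adjusted p = 0.327). Its difference was -0.36 without control replicate 3, the highest control, and -0.63 without control replicate 1, the lowest. Ulk1, the kinase most often linked to starvation-induced autophagy, measured 83.4, 75.4 and 72.7 CPM in controls and 77.3, 69.4 and 67.9 CPM in exposed livers. These groups overlapped (-0.11 ± 0.18, 95% interval -0.50 to 0.27, adjusted p = 0.838).

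Atg101, which stabilises Atg13, was the most abundant initiation member per gene length, at 40.1 CPM per kilobase over the 6 libraries. It reached 67.5 CPM in control replicate 3 against 43.0 and 39.1 CPM in the other controls, and 47.9, 44.0 and 54.5 CPM in exposed livers (-0.032 ± 0.22, adjusted p = 0.969). Its log2 fold change was 0.27 without control replicate 3, and its sign was positive with limma-voom (0.0087). On the per-length scale, the level of Ulk2 over that of Ulk1 was 0.46, 0.61 and 0.61 in controls and 0.67, 1.03 and 0.85 in exposed livers. The level of Rb1cc1 over that of Atg13 was 0.19, 0.17 and 0.12 in controls and 0.30, 0.41 and 0.25 in exposed livers. Neither ratio overlapped between groups; they were chosen once the values were known and carry no test.

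**Figure D2:**
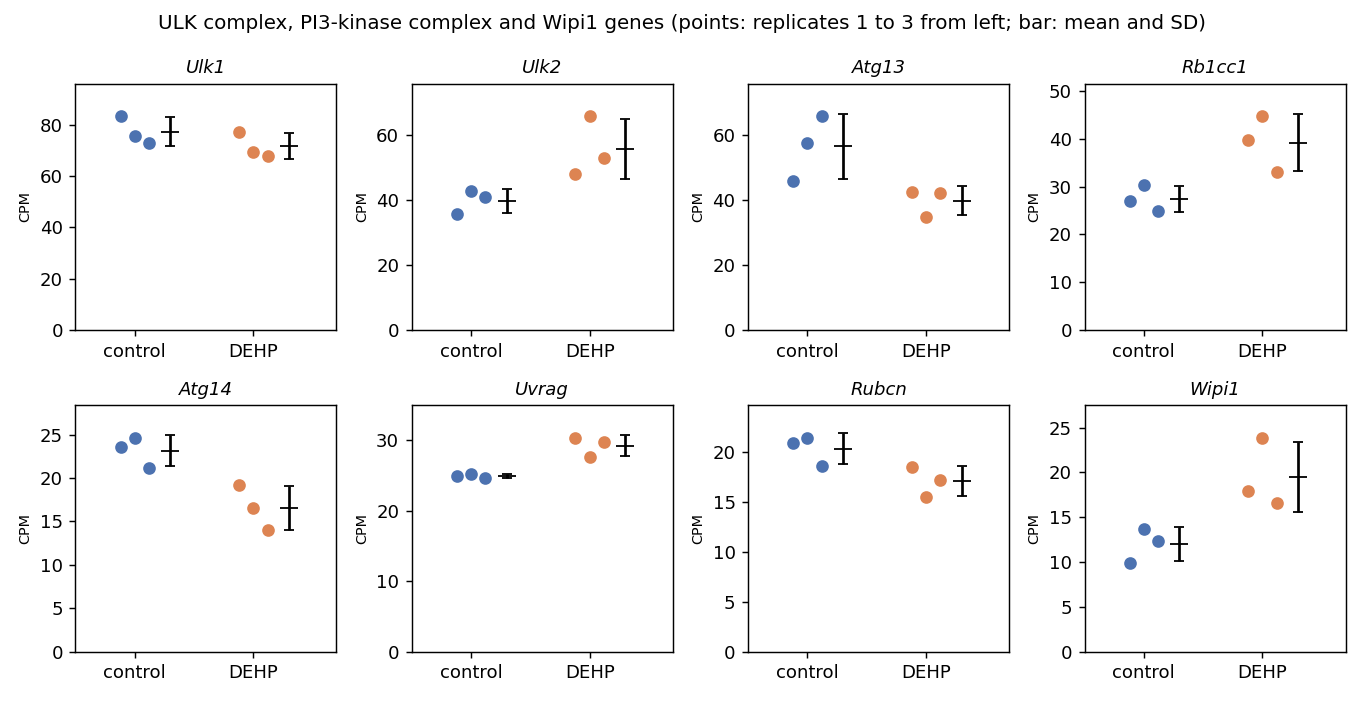
CPM (y axis, from 0) of 8 genes in the 3 control and 3 DEHP libraries, with each group's mean and SD beside its points. Ulk2, Rb1cc1, Uvrag and Wipi1 lie higher and Atg13, Atg14 and Rubcn lower in every exposed library than in any control, while the groups of Ulk1 overlap.

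In the nucleation step, which makes the lipid signal and supplies membrane, 1 of 14 members lay higher and 1 lay lower (unadjusted p of 0.05). Each is 7.1% of the step, near the shares over all genes (6.11% higher and 6.97% lower). Wipi1, which binds the lipid made by the phosphatidylinositol 3-kinase, had the largest positive difference of the 44 members. It measured 9.92, 13.7 and 12.3 CPM in controls and 17.9, 23.9 and 16.6 CPM in exposed livers. Each exposed library lay above each control (0.70 ± 0.24, a 1.63-fold difference, 95% interval 0.18 to 1.22, adjusted p = 0.273). Wipi2, its relative that recruits the conjugation complex, measured 114, 101 and 97.1 CPM in controls and 117, 107 and 99.1 CPM in exposed livers (0.044 ± 0.18, adjusted p = 0.946). The level of Wipi1 over that of Wipi2 per length was 0.21, 0.32 and 0.30 in controls and 0.37, 0.54 and 0.40 in exposed livers. This ratio was chosen once the values were known and carries no test. Wipi2 was the more abundant of the pair in every library.

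Beclin 1 and the kinase subunits that the complexes share showed no difference larger than their spread. Becn1 measured 28.1, 27.4 and 27.1 CPM in controls and 27.1, 29.0 and 37.8 CPM in exposed livers, where DEHP replicate 3 stood apart from the other libraries (0.18 ± 0.20, 95% interval -0.25 to 0.62, adjusted p = 0.740). Without DEHP replicate 3 the difference was 0.028. Pik3c3, the catalytic subunit, had 0.061 ± 0.21, and Pik3r4, its regulatory subunit, -0.093 ± 0.22 (adjusted p = 0.937 and 0.898). Ambra1, which regulates Beclin 1, had -0.091 ± 0.21 (adjusted p = 0.899).

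The subunits that set which complex Beclin 1 joins had differences of opposite sign, and neither passed the threshold. Atg14 directs the kinase to the forming autophagosome, and Uvrag replaces it in the complex of endosomes and later steps. Atg14 measured 23.6, 24.7 and 21.2 CPM in controls and 19.1, 16.5 and 14.0 CPM in exposed livers. All 3 exposed libraries were below all 3 controls (-0.49 ± 0.22, 95% interval -0.95 to -0.023, adjusted p = 0.369). Uvrag measured 24.9, 25.2 and 24.6 CPM in controls, the tightest controls of any member, and 30.4, 27.6 and 29.7 CPM in exposed livers. Its groups did not overlap, but the difference was small and its 95% interval included 0 (0.23 ± 0.19, -0.18 to 0.64, adjusted p = 0.654).

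Rubcn, which encodes Rubicon, an inhibitor that binds the Uvrag complex, measured 21.0, 21.5 and 18.6 CPM in controls and 18.5, 15.5 and 17.2 CPM in exposed livers. The groups only just missed overlapping (-0.25 ± 0.21, adjusted p = 0.656). Per length, the level of Uvrag over that of Atg14 was 1.06, 1.03 and 1.17 in controls and 1.59, 1.68 and 2.13 in exposed livers. This ratio was 1.08 ± 0.0736 and 1.80 ± 0.288 (SD, n = 3), was chosen once the values were known, and carries no test.

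The other 5 members of this step supply or mark membrane, and none was at an unadjusted p of 0.05. Vmp1, an endoplasmic reticulum protein that moves lipid across the membrane, was the most abundant per length (45.5 CPM per kilobase). It ranged from 149 to 186 CPM in controls and from 143 to 226 CPM in exposed livers (0.025 ± 0.21, adjusted p = 0.973), with a negative sign when control replicate 2 or DEHP replicate 1 was dropped. The lipid transfer genes Atg2a and Atg2b had 0.12 ± 0.21 and 0.21 ± 0.22, and Zfyve1, a marker of the sites where autophagosomes form, 0.083 ± 0.18. Atg9a, the membrane protein of the seed vesicles, was low and varied among controls, at 3.69, 7.59 and 12.8 CPM against 12.5, 8.99 and 9.09 CPM in exposed livers (0.34 ± 0.39, adjusted p = 0.752). The Atg9a difference was 0.88 without control replicate 3, there at an unadjusted p of 0.05, and -0.0046 without control replicate 1. Its span overlaps that of Ankzf1 on the other strand, which held up to 548 counts. Whether counting used strand is not given, so these reads may be shared.

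The conjugation step had a median of 0.19 over 14 tested members, with 10 positive. That median was 0.33 when control replicate 3 was dropped, 0.12 when control replicate 1 was, and 0.013 when control replicates 1 and 2 both were. It was above the medians of the other 4 steps with all libraries, but below that of the fusion step both without control replicate 1 (0.13) and without the pair (0.14). At an unadjusted p of 0.05 (edgeR), where 6.11% of all genes were higher and 6.97% lower, 2 members were higher and 0 lower. Both belong to the ATG8 family, whose proteins are attached to lipid on the autophagosome. Gabarap measured 177, 230 and 229 CPM in controls and 289, 290 and 276 CPM in exposed livers. The exposed libraries lay close together and above all controls (0.43 ± 0.19, a 1.34-fold difference, 95% interval 0.024 to 0.83, adjusted p = 0.366).

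Gabarapl1, another ATG8 gene, was the most abundant member per length, at 232 CPM per kilobase over the 6 libraries. It measured 206, 289 and 366 CPM in controls and 418, 364 and 472 CPM in exposed livers. Control replicate 3 lay just above DEHP replicate 2, so the groups overlapped (0.54 ± 0.23, 95% interval 0.060 to 1.02, adjusted p = 0.344). The difference was 0.78 without control replicate 3 (adjusted p = 0.0878), 0.35 without control replicate 1, and 0.20 with control replicates 1 and 2 both left out, the 2 libraries with high interferon-stimulated genes. Among annotated entries that overlap it on the other strand, 1700101I11Rik held 59 to 126 counts a library.

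Gabarapl2 had 14.0, 13.0 and 18.2 CPM in controls and 17.3, 22.2 and 21.7 CPM in exposed livers (0.44 ± 0.23, adjusted p = 0.430). Its value is uncertain, since 2 processed pseudogenes described as copies of it held 44 to 100 counts a library. Map1lc3a, an LC3 gene, had 64.6, 62.2 and 77.9 CPM in controls and 96.8, 73.1 and 85.0 CPM in exposed livers (0.32 ± 0.19, adjusted p = 0.508). Map1lc3b, whose protein is the usual marker of autophagosomes, has no row under its symbol. A protein-coding row on chromosome 8, whose name is an identifier, is described by its match to the bovine MAP1LC3B protein. That row held 80.8, 104 and 103 CPM in controls and 111, 145 and 145 CPM in exposed livers, without overlap (0.48 ± 0.20, adjusted p = 0.343). A processed pseudogene described as Map1lc3b held 125 to 157 counts a library, so reads may be split.

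All 4 ATG8 members and the row described as Map1lc3b therefore had positive differences, from 0.32 to 0.54, and 0 of the 5 passed the threshold. With control replicates 1 and 2 both removed, the differences were 0.14 for Map1lc3a, 0.18 for Gabarapl2, 0.20 for Gabarapl1, 0.33 for Gabarap and 0.39 for the described row. With all libraries, 3 of the 5 were higher at an unadjusted p of 0.05 (edgeR), where 6.11% of all genes were. This family was singled out with its values in view, and its genes share the same libraries. In each of the 5, control replicate 1 or 2 was the lowest library.

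**Figure D3:**
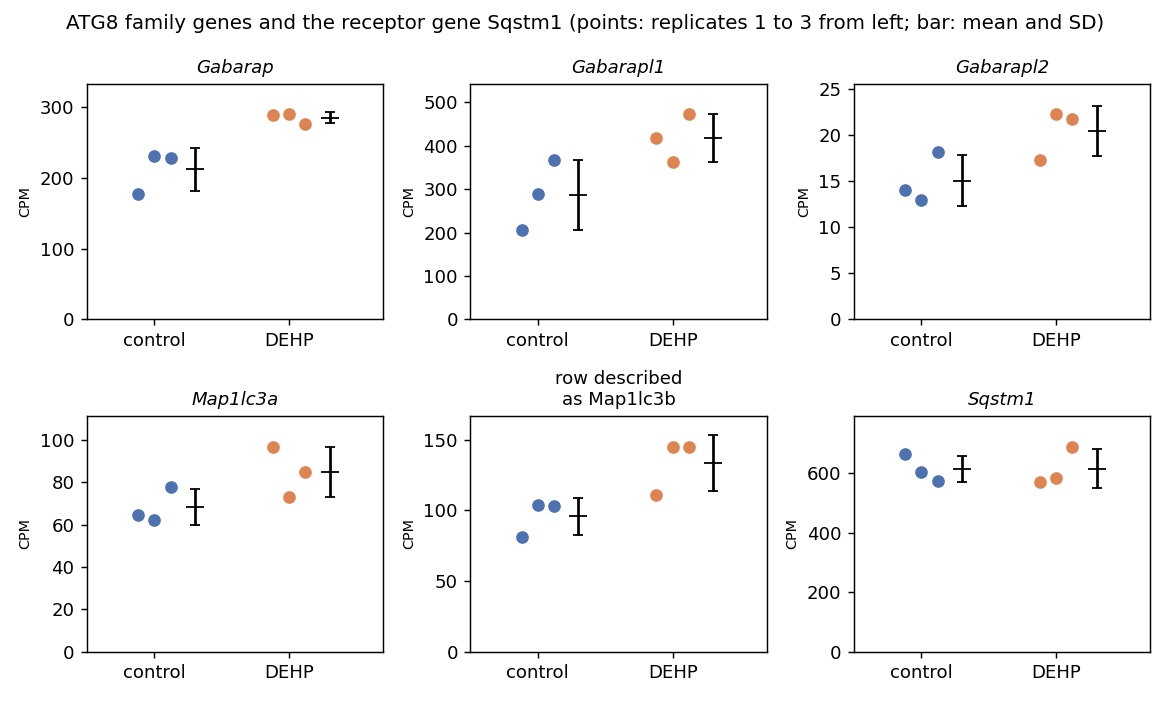
CPM (y axis, from 0) of the 4 ATG8 members, of the row described as Map1lc3b and of the receptor gene Sqstm1 in 3 control and 3 DEHP libraries, with mean and SD beside the points. The ATG8 group means are higher in exposed livers, with overlap for Gabarapl1, Gabarapl2 and Map1lc3a, while the 2 Sqstm1 means are 614 and 615 CPM.

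The enzymes that carry out conjugation showed no shared direction. Atg5, part of the complex that attaches ATG8 to lipid, measured 39.8, 51.0 and 46.0 CPM in controls and 50.7, 71.7 and 57.5 CPM in exposed livers. DEHP replicate 1 lay just below control replicate 2 (0.40 ± 0.20, 95% interval -0.030 to 0.82, adjusted p = 0.417). The Atg5 difference was 0.26 without DEHP replicate 2 and 0.53 without DEHP replicate 1. Atg12, its covalent partner, had 0.23 ± 0.20, and Atg16l1, which places the complex on the membrane, -0.17 ± 0.18 (adjusted p = 0.673 and 0.727). Atg7, the activating enzyme of both conjugation systems, measured 59.5, 64.3 and 57.5 CPM in controls and 53.8, 44.1 and 59.2 CPM in exposed livers, with DEHP replicate 3 inside the control range (-0.21 ± 0.19, 95% interval -0.61 to 0.20, adjusted p = 0.685). The Atg7 difference was -0.086 when DEHP replicate 2 was dropped.

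Atg3, the enzyme that passes ATG8 to lipid, ranged from 61.9 to 102 CPM in controls and from 85.1 to 109 CPM in exposed livers (0.22 ± 0.21, adjusted p = 0.713). Atg10, which joins Atg12 to Atg5, was at 3.35 ± 0.55 and 3.39 ± 0.57 CPM (SD, n = 3), with 31 to 54 counts a library. The 4 Atg4 proteases, which trim ATG8 proteins and release them from lipid, had log2 fold changes from -0.14 to 0.16. Atg4d was the most abundant of them per length (13.7 CPM per kilobase) and Atg4a the least (1.23 CPM per kilobase, 16 to 29 counts a library). The 95% interval for Atg4a ran from -1.27 to 0.99, the widest of the 44 members. Atg4a-ps, described as a copy of it, held 27 to 78 counts, so reads of Atg4a may be split. Atg4b, at 236 to 494 counts a library, overlaps Thap4 on the other strand, at 152 to 258 counts, so these reads may be shared.

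Cargo receptors as a step stayed near 0, with a median of -0.031 and 2 of 6 members positive (0.027 without DEHP replicate 2). Sqstm1, which encodes p62, the receptor that carries ubiquitinated cargo, measured 662, 604 and 575 CPM in controls and 572, 585 and 689 CPM in exposed livers. The ranges coincided (0.0035 ± 0.19, 95% interval -0.39 to 0.40, adjusted p = 0.996), and the sign turned when DEHP replicate 3 or either of control replicates 2 and 3 was dropped. Optn, the receptor optineurin, was the steadiest receptor gene, at 126 ± 4.95 and 122 ± 5.72 CPM (SD, n = 3; -0.046 ± 0.18). Tax1bp1, Calcoco1, which serves the endoplasmic reticulum, and Nbr1, a relative of p62, had -0.016 ± 0.19, -0.050 ± 0.22 and -0.21 ± 0.19 (adjusted p = 0.982, 0.950 and 0.689).

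Wdfy3, which encodes ALFY, a scaffold between p62 and the conjugation complex, was the exception in this step. It measured 32.8, 37.1 and 38.6 CPM in controls and 65.2, 45.6 and 41.5 CPM in exposed livers. The exposed libraries all lay above the controls (0.49 ± 0.21, adjusted p = 0.356), with DEHP replicate 1 far above the other 2. Without DEHP replicate 1 the difference was 0.29.

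Fusion genes gave 0 of 5 members at an unadjusted p of 0.05 (edgeR), where 13.1% of all genes reached it in either direction. With limma-voom 1 member was lower, where 6.22% of all genes were. Stx17 and Snap29, SNAREs of the autophagosome and cytosol, had 0.15 ± 0.20 and 0.27 ± 0.22 (adjusted p = 0.786 and 0.633). Snap29 shares its span with Pi4ka on the other strand, at 411 to 561 counts a library. Vamp8, their partner on the lysosome and the most abundant of the step per length (89.1 CPM per kilobase), measured 243, 187 and 188 CPM in controls and 216, 202 and 199 CPM in exposed livers (-0.0047 ± 0.19, adjusted p = 0.995), with a sign that was positive under RLE scaling (0.0100). Epg5, a tether, had 0.056 ± 0.25 (adjusted p = 0.950).

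Tecpr1, another tether of autophagosome and lysosome, had the largest negative difference of the members. It measured 27.9, 18.3 and 21.2 CPM in controls and 18.1, 10.9 and 17.2 CPM in exposed livers. Control replicate 2 and DEHP replicate 1 lay almost level, so the groups only just missed overlapping (-0.55 ± 0.26, 95% interval -1.09 to 0.00097, adjusted p = 0.382). Its difference came to -0.34 when DEHP replicate 2 was dropped and to -0.36 when control replicate 1 was. Tecpr1 is the member that limma-voom put at an unadjusted p of 0.05, as did edgeR with no low-count filter and with a replicate block. Tecpr1 was also at that p without control replicate 2 or DEHP replicate 1 (edgeR), but not when any other single library was dropped.

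**Figure D4:**
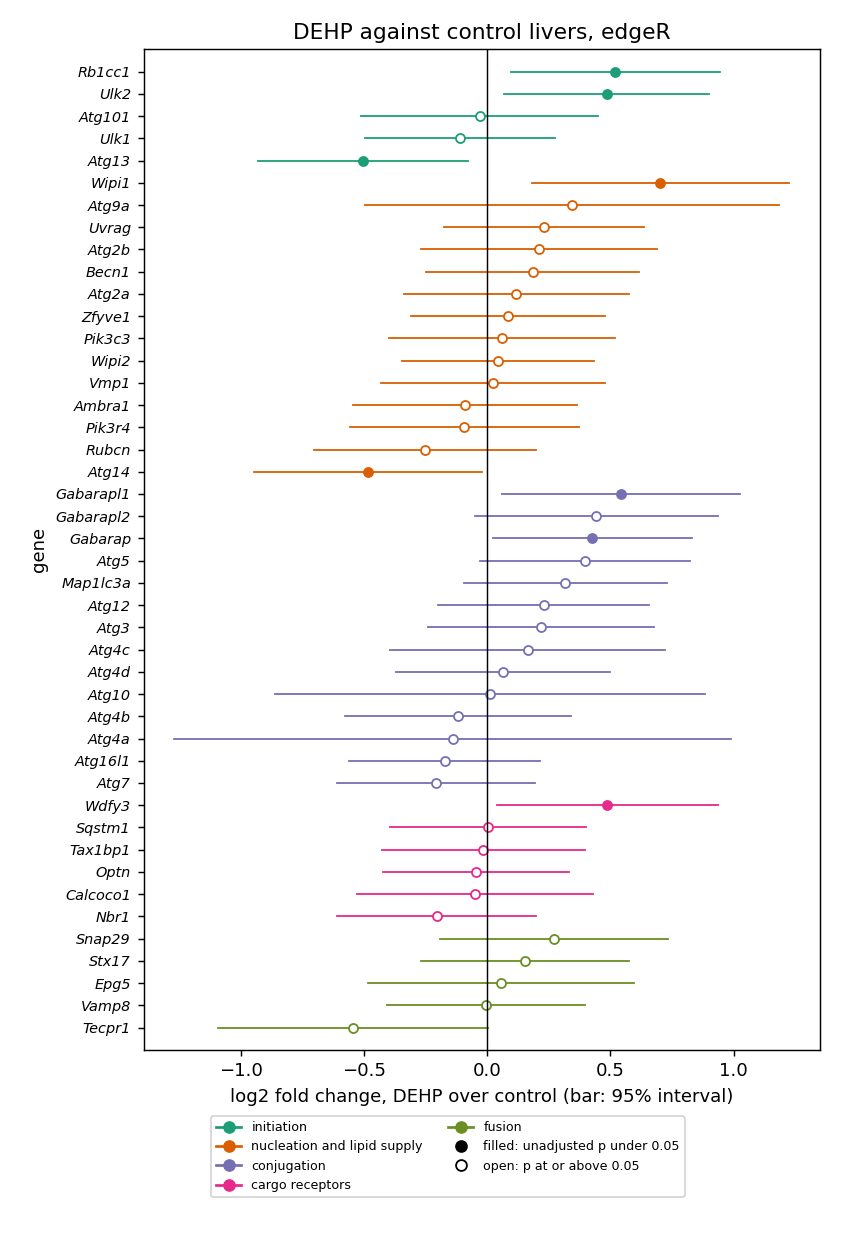
Log2 fold change of exposed over control livers (x axis, edgeR) for 44 members (y axis, by step), with 95% intervals as bars. Filled points are the 8 members at an unadjusted p of 0.05, 6 to the right of 0 and 2 to the left.

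Per gene length, 2 of the ATG8 genes and the p62 gene had the highest levels. Gabarapl1 (232 CPM per kilobase over 6 libraries), Sqstm1 (183) and Gabarap (135) led, followed by Vamp8 (89.1) and Map1lc3a (64.9). In controls Gabarapl1 and Sqstm1 could not be ordered beyond their spread (189 ± 52.8 and 183 ± 13.3 CPM per kilobase, SD, n = 3), while in exposed livers Gabarapl1 was above (275 ± 35.9 against 183 ± 19.1). Sqstm1 stood above Gabarap in every library. Rb1cc1 lay at 2.45 and Becn1 at 6.19 CPM per kilobase, and Atg9a, Tecpr1 and Atg4a came last (1.58, 1.48 and 1.23). Lengths are those of the table's gene models, so a model longer than the liver transcript lowers its value.

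**Figure D5:**
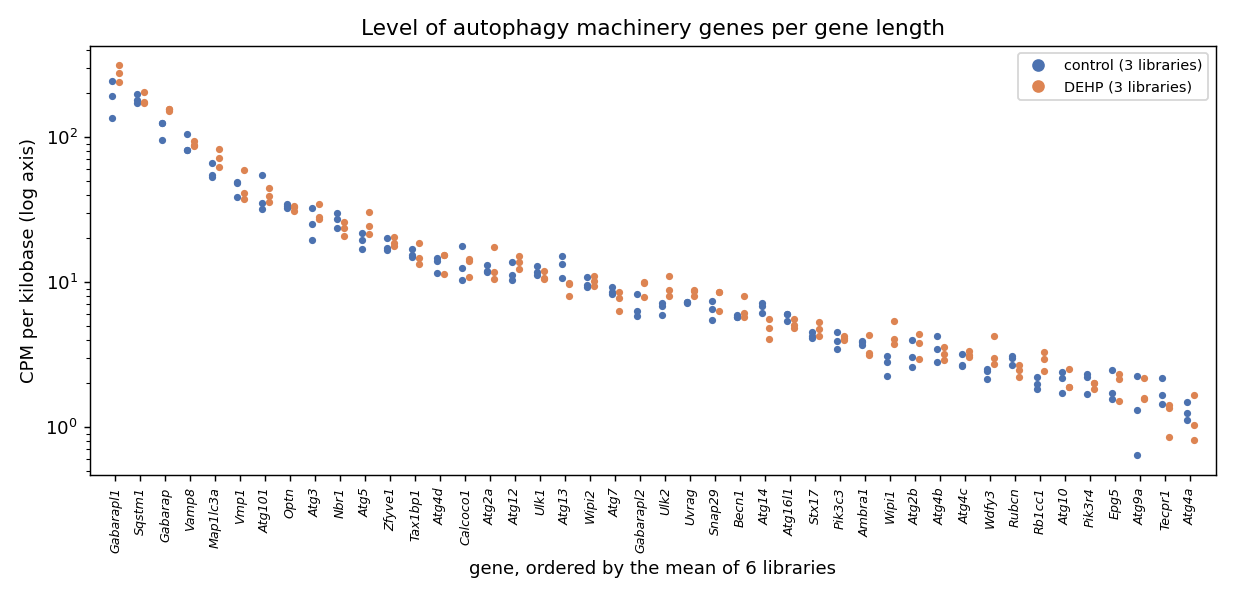
CPM per kilobase (y axis, log scale) of 44 members ordered by their mean over 6 libraries, with 1 point per library (blue, 3 control; orange, 3 DEHP). Gabarapl1, Sqstm1 and Gabarap lead the order, at 232, 183 and 135 CPM per kilobase, and Atg4a closes it at 1.23.

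Summed over each step, conjugation was the 1 step of 5 whose groups did not overlap. The 14 conjugation members summed to 779, 950 and 1069 CPM in controls and 1183, 1133 and 1215 CPM in exposed livers, with Gabarapl1 and Gabarap the most abundant members. Control and exposed means were 933 and 1177 CPM for this sum, 287 and 418 CPM for Gabarapl1, and 212 and 285 CPM for Gabarap. The 5 initiation members summed to 251 ± 19.2 and 255 ± 4.13 CPM, the 6 receptors to 1160 ± 42.1 and 1145 ± 46.9 CPM, and the 5 fusion members to 295 ± 40.3 and 295 ± 10.7 CPM (SD, n = 3). Nucleation members summed to 650 ± 29.4 and 680 ± 82.8 CPM, and all 44 members to 3288 ± 108 and 3552 ± 82.3 CPM, without overlap. These sums are descriptions over chosen members and carry no test. They weigh the most abundant genes most, so they do not describe a shift shared by a step's members or by all 44.

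Another 40 autophagy genes outside the members were examined, of which 34 had a row and 32 were tested. None passed the threshold (0 in edgeR, DESeq2 and limma-voom); 2 lay higher and 4 lower by an unadjusted p of 0.05 (edgeR), where 6.11% and 6.97% of all genes did. Vti1b, a SNARE of late endosomes, measured 30.8, 41.2 and 31.5 CPM in controls and 46.9, 62.2 and 55.1 CPM in exposed livers (0.67 ± 0.20, adjusted p = 0.215). Sh3glb1, a membrane-bending partner of Uvrag and Beclin 1, measured 56.0, 60.5 and 59.2 CPM in controls and 80.1, 117 and 81.2 CPM in exposed livers (0.67 ± 0.20, adjusted p = 0.215). Groups did not overlap for either.

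Among the 4 lower genes, Tmem41b, which moves lipid together with Vmp1, measured 21.6, 25.1 and 26.0 CPM in controls and 14.6, 16.5 and 14.4 CPM in exposed livers, without overlap (-0.67 ± 0.21, adjusted p = 0.229). Tbk1, a kinase that activates receptors and also serves interferon induction, measured 36.6, 36.7 and 19.8 CPM in controls and 19.7, 23.2 and 18.5 CPM in exposed livers (-0.60 ± 0.25, adjusted p = 0.344). Control replicate 3 lay among the exposed libraries for Tbk1, as it did for the interferon-stimulated sum. Atg16l2, a relative of Atg16l1, had -0.75 ± 0.27 and Vps16, a subunit of the tethering complex of late endosomes, -0.49 ± 0.21 (adjusted p = 0.290 and 0.358). The median of the 32 genes was 0.03.

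Promoters were read for the genes named here because a shared DNA motif, the E-box of the CLEAR type, is known to let the factor TFEB act on many autophagy and lysosome genes. RefSeq windows of GRCm38.p6, from 250 bases before to 50 after a start, were matched by symbol for 37 of 45 members. The E-box CACGTG, which reads alike on both strands, was found in 5 of the 37 (13.5%), Atg3, Atg5, Atg7, Atg14 and Rubcn, against 8.09% of 27025 genes. The longer core TCACGTGA, which contains the E-box, was found in Atg3 alone (2.7%, against 1.12%). The exact letters TGTTTAC, 1 form of the forkhead motif, were found on either strand in 0 of 37 (against 4.05%). Other forms of the forkhead motif were not searched. A match is a description of letters, not a site. Shown 5′ to 3′ on the gene's strand, up to base 30 after the start, are the windows of the largest positive difference (Wipi1), of the most abundant member (Gabarapl1), of the lower member at an unadjusted p of 0.05 that holds an E-box (Atg14), and of the member with the longer core (Atg3). Capitals mark the E-box or the longer core, and windows without capitals hold neither. Wipi1 is at chr11:109611360-109611639, minus strand, Gabarapl1 at chr6:129532942-129533221, plus strand, Atg14 at chr14:47568405-47568684, minus strand, and Atg3 at chr16:45158579-45158858, plus strand.
Wipi1: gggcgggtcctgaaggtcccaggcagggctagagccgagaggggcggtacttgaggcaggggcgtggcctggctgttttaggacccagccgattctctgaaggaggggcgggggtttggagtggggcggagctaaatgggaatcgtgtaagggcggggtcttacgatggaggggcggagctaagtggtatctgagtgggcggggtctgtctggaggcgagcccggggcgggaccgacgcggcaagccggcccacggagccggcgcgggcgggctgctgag
Gabarapl1: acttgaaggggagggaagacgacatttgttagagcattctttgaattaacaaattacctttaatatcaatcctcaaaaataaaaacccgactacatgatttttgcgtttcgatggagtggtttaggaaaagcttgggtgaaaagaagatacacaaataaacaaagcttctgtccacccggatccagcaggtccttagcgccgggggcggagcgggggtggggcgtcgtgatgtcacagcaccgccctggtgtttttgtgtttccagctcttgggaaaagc
Atg14: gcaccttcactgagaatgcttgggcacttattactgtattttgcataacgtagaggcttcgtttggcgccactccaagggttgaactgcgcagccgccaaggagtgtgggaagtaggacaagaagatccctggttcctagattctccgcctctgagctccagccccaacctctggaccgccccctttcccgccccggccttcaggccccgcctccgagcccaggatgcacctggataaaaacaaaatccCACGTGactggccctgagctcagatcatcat
Atg3: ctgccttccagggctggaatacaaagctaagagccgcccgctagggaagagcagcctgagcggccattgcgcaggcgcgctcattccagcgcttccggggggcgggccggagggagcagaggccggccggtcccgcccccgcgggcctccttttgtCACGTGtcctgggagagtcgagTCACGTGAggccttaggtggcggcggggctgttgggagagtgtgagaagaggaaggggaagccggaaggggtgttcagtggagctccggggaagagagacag
The Atg14 E-box begins at the last base before the start, and the Atg3 window holds a pair of E-boxes, which begin 94 and 71 bases before it. The members with an E-box had differences of both signs, from -0.49 (Atg14) to 0.40 (Atg5).

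By the table's own coordinates, with identifiers of the C57BL/6NJ strain annotation, Wipi1 spans chromosome 11 from 116566551 to 116608345 and Gabarap chromosome 11 from 72607983 to 72611713. Rb1cc1 spans chromosome 1 from 3450433 to 3531362, Atg13 chromosome 2 from 96279013 to 96314444, and Atg14 chromosome 14 from 43055370 to 43091541. Gabarapl1 spans chromosome 6 from 136701504 to 136710386 and Ulk2 chromosome 11 from 63712741 to 63807464. The row described as Map1lc3b spans chromosome 8 from 129257727 to 129267787. The table lists all 8 as protein-coding genes. These positions do not belong to the build of the promoter windows and were not converted.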

How the data were processed

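Paired-end libraries of polyadenylated RNA were made with a directional kit, per the labels' protocols. The authors deposited whole-number read counts per gene; the submitters' processing notes name the build GRCm38.p6, with aligner, counter and strand setting not given in the sources used here. Loci without a gene name (1284 of 42380 rows, 2.73% to 4.28% of counts) stayed out. Groups came from sample titles. The test was edgeR's (version 4.0.16, R 4.3.3; filterByExpr, minimum count 10, TMM, robust quasi-likelihood, no covariate, two-sided, Benjamini-Hochberg over 12468 genes, threshold 0.05), after a check on simulated counts. SE was derived from the F statistic. Alternatives used DESeq2 1.42.0, limma 3.58.1, other scalings and filters, a replicate block and libraries left out. The common biological coefficient of variation was 27.8%, which with 3 libraries a group limits small differences. Replicate libraries differed by more than sampling noise (chi-square over its degrees of freedom was 28.4 or more), so each counted as 1 sample. Members, lists and rules were chosen with earlier results of these data known. Full values were given for 6 members in every case, those at an unadjusted p of 0.05, those without overlap, and the most abundant per length of each step; picks after values were seen are marked.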

Additional observations from a re-analysis of the deposited data

How the results depend on the processing

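In each of the 15 alternatives 0 of 44 members and 0 of the other autophagy genes passed the threshold (smallest adjusted p of any member 0.0878, Gabarapl1 without control replicate 3), and 15 of 19 named members kept their sign. The 4 that did not lay near 0 in the fit with all libraries. Vamp8 was 0.0100 with RLE scaling, 0.026 with no low-count filter, 0.0096 with a mean of at least 1 CPM, 0.0099 with DESeq2, 0.0058 with limma-voom, 0.0054 with a replicate block, 0.0081 with unnamed loci added, 0.14 with control replicates 1 and 2 both left out, and -0.067 to 0.13 with 1 library left out. Atg101 was 0.0087 with limma-voom, 0.0036 with a replicate block, and -0.18 to 0.27 with 1 library left out. With 1 library left out, Sqstm1 was -0.083 to 0.075 and Vmp1 -0.17 to 0.16. With control replicates 1 and 2 both left out, Atg101 was -0.46, Sqstm1 0.11 and Vmp1 -0.054.

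With 1 library left out, genes called over all genes ran from 5 to 400 (400 without control replicate 3), and the members' median from 0.033 to 0.15. Members at an unadjusted p of 0.05 ran from 2 to 7 higher (7 without control replicate 3) and from 0 to 3 lower. Shares of all genes at that p ran from 3.47% to 7.65% higher and from 3.73% to 8.32% lower. Step medians ran from -0.12 to 0.27 for initiation, 0.043 to 0.14 for nucleation, 0.12 to 0.33 for conjugation and -0.069 to 0.027 for receptors, and the fusion median, 0.056 with all libraries, ran from -0.044 (without control replicate 3) to 0.20. Without both control replicates 1 and 2, a fit in which the lone control is assumed to vary like the exposed libraries, 0 genes were called (edgeR), 1 member lay higher and 1 lower (unadjusted p of 0.05), and medians were 0.013 for conjugation, -0.012 for nucleation, 0.050 for receptors and 0.14 for fusion. Over all genes, 496 were called with no low-count filter, where the receptor median was -5.9e-04, and 272 with DESeq2. DESeq2 had 1 lower member at an unadjusted p of 0.05, where 6.96% of all genes were lower. The causes were not tested.

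With the replicate block 6 genes were called, and 0 members. Same-numbered libraries did not deviate together (correlations -0.02, 0.06 and -0.03 for numbers 1 to 3). Whether same-numbered samples share more than a number cannot be told from these correlations. With the block, 6 members lay higher and 3 lower by an unadjusted p of 0.05, where 6.68% and 6.96% of all genes did. Compared with the fit without it, Wdfy3 (0.46) was no longer at that p, and Atg5 (0.39) and Tecpr1 (-0.55) were.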

Other observations

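Members varied less among libraries of a group than other genes did. The median coefficient of variation of the 44 members was 12.3% in controls and 13.6% in exposed livers, against 21.5% and 20.8% over all genes tested, and the members' median level was higher (39.4 against 15.2 CPM). Uvrag had the lowest value among controls (1.16%) and Atg9a the highest (57.2%). Control replicates 1, 2 and 3 lay inside the range of the exposed libraries for 13, 17 and 21 of the 44 members. These shares were 29.5%, 38.6% and 47.7%, against 35.9%, 45.5% and 48.3% of all genes tested. The per-length level of Gabarapl1 over that of Sqstm1 was 0.69, 1.06 and 1.41 in controls and 1.62, 1.37 and 1.52 in exposed livers, where control replicate 3 overlapped the exposed libraries. That ratio, too, was chosen once the values were known and carries no test.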
